A study of Homo sapiens with 6 samples.

Results

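The mitochondrial ribosomal proteins are nuclear-encoded, and most have human gene symbols that start with MRPL or MRPS. Members were taken by name alone: rows whose symbol was MRPL or MRPS, digits and at most one letter A, B or C. This found 78 of the 25987 genes with a symbol in the count table, 49 MRPL and 29 MRPS, and 6 rows with similar names (antisense genes, the pseudogene MRPS31P5 and the readthrough gene URGCP-MRPS24) were left out. The cells were 786-O, a cell line from a human clear cell renal carcinoma, labelled wild type and widely known to have lost VHL function, and total RNA was sequenced. The 3 copper cultures had been adapted to a medium whose serum had been incubated with copper sulfate, as a model of how copper affects metabolism in this cancer, and the 3 control cultures received serum handled alike with no copper added. Copper was at 30 uM per the series text, though the sample labels step from 30 through 31 to 32 uM over copper replicates 1 to 3. The labels do not say whether the 3 samples of a group were separately adapted, so p-values measure only the spread between these samples, which may be technical, and all come from 1 cell line.

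Mitochondrial ribosomes translate the few membrane proteins that mitochondrial DNA encodes, all of them core subunits of the respiratory chain and the ATP synthase, among them the copper-binding subunits of cytochrome c oxidase. Their large subunit forms peptide bonds and their small subunit reads the messenger RNA. The proteins are made in the cytosol and imported. Some have bacterial relatives, and others exist only in mitochondrial ribosomes.

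In copper-adapted cells the messenger RNAs of these ribosomal proteins lay close to the control level. No member passed the test of copper against control, but the same fit called 0 of all 12944 genes tested (0%). The fitted log2 fold changes of the members (copper minus control) ran only from -0.15 for MRPL46 to 0.30 for MRPL41. Most lay a little above 0, as did 68 of 82 cytosolic ribosomal proteins. Of the 77 members tested, 69 had a positive value, and the median was 0.107 against 0.005 over all 12944 genes tested. That small shift was uneven between replicates, with median differences of 0.059, 0.056 and 0.197 in the replicate pairs 1, 2 and 3. The 2 subunits had similar medians, 0.102 for the large and 0.126 for the small.

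The libraries held 16301772 to 25079913 counts, the 3 copper libraries (16301772 to 18189469) fewer than the 3 control libraries (19219090 to 25079913). Replicate 3 stood apart in both groups: the chi-square per degree of freedom between libraries of 1 group was 19.8 to 61.1 for pairs that held it and 5.04 to 5.55 for replicate 1 against 2. Of 8 listed renal carcinoma markers, VIM, KRT8, KRT18, NNMT, EPAS1, PAX8 and PAX2 were detected, while CA9, also a hypoxia marker, was near 0 (mean 0.059 CPM in copper and 0.068 in control). PAX2 measured 8.23, 8.58 and 9.01 CPM in copper and 5.63, 7.30 and 7.23 CPM in control, with no overlap. Its log2 fold change was 0.36, which edgeR did not call (adjusted p = 0.518 with a replicate block). Of the 7 tested genes of this list, 2 had a positive log2 fold change. CPM stands for the counts of a gene per 1e6 counts of its library, scaled by the trimmed mean of M-values (TMM). Among 7 markers of other cell types, the immune and endothelial genes PTPRC, CD3E, PECAM1 and CDH5 were at or near 0, and the list summed to 4.63 to 6.31 CPM in copper and 5.55 to 10.0 CPM in control. COL1A1, the fibroblast collagen gene of that list, was at 3.42 ± 1.23 CPM in copper and 6.53 ± 2.43 CPM in control (SD, n = 3), a log2 fold change of -0.90. edgeR did not call it (adjusted p = 1.00, or 0.130 with a replicate block), but did with the block and a length and GC correction (adjusted p = 0.0366), and with the block without replicate 1 (0.0203) or without replicate 3 (0.000567) of both groups. EPCAM, an epithelial marker and the other tested gene of the list, lay the other way, at 1.71, 1.46 and 1.40 CPM in copper and 1.21, 0.882 and 0.838 CPM in control, with no overlap and a log2 fold change of 0.58 (edgeR adjusted p = 1.00, or 0.536 with the block).

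The promoters of these genes share sequence words more often than promoters at large. RefSeq promoters (GRCh38.p14, 250 bases before to 50 after the start) were found for 70 of the 78 members and searched on both strands for 3 words linked to factors known to act on nuclear genes of mitochondria and ribosomes. The ETS word CCGGAAG, the core bound by ETS-family factors such as GABP, was in 29 members (41.4%) and in 10.7% of all 27305 promoters. These 27305 promoters were not limited to the genes tested here, so the members were not compared with other expressed genes alone. The YY1 word ATGGCGG was in 24 members (34.3%) and 5.72% of all promoters. In 20 of these 24 it lay at or after the start, 19 of them on the gene's own strand, where its ATG can also be a start codon. The NRF1 word, GCGC on both sides of any 2 bases, was in 9 members (12.9%) and 8.78% of all promoters, so its 2 shares lay closest. At least one of the 3 words was in 51 members (72.9%) and in 21.5% of all promoters. No member had the word TATAAA on its own strand in the 50 bases before its start, against 2.92% of all promoters. The shares depend on the window, and within the 100 bases before the start they were 27.1% against 5.95% for ETS, 4.29% against 1.09% for YY1 and 5.71% against 4.99% for NRF1. No 2 of these words overlapped in any member, and a match is a description of letters, not of binding.

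**Figure D1:**
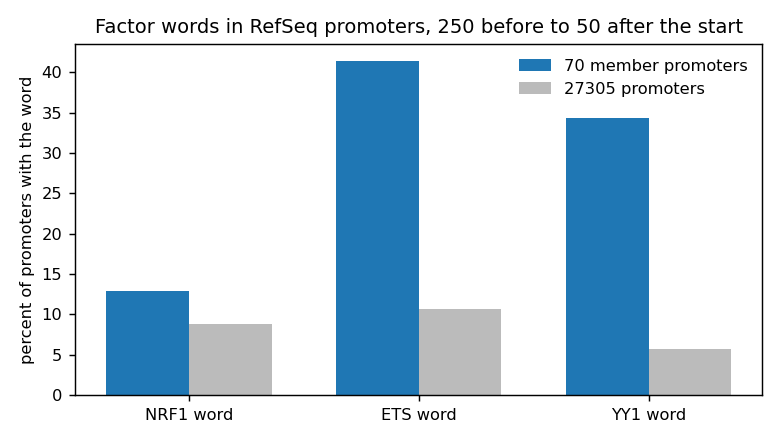
Percent of RefSeq promoters (y axis) that hold the NRF1, ETS or YY1 word, for the 70 matched members and for all 27305 promoters. Bars start at 0; the ETS bars stand at 41.4% and 10.7%, the YY1 bars at 34.3% and 5.72%, and the NRF1 bars at 12.9% and 8.78%.

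The sequences before the start of 4 members are shown because they carry these words in a readable arrangement and include MRPS11 and MRPL20, the members with the smallest unadjusted p-values. Capitals mark the words, and each sequence runs 5′ to 3′ on the gene's strand and ends at the base before the RefSeq start. MRPS11, at chr15:88467458-88467707 on the plus strand, holds 1 NRF1 word and lies between the starts of MRPS11 and MRPL46. MRPL20, at chr1:1407294-1407443 on the minus strand, holds 2 ETS words on the gene's strand. MRPL51, at chr12:6493263-6493412 on the minus strand, holds 1 ETS word on each strand, as does MRPS22, at chr3:139343844-139343993 on the plus strand.
MRPS11: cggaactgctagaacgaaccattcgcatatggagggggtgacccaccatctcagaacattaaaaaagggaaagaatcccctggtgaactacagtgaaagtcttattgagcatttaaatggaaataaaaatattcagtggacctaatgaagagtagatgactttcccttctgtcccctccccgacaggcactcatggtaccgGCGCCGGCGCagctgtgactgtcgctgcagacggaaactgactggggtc
MRPL20: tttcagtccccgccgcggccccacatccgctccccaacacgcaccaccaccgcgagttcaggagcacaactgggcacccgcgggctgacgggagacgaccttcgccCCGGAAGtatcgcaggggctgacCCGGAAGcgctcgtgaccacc
MRPL51: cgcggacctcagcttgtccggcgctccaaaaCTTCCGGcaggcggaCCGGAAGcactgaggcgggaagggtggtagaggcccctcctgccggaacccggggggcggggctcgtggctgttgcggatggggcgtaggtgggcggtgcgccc
MRPS22: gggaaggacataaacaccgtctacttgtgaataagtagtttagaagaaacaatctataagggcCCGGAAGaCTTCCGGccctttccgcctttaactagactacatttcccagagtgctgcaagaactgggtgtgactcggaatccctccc

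The level of the members differed far more than their response. Levels are compared between genes per length, as CPM per kilobase of a GENCODE 29 transcript, averaged over the 6 libraries. The median was 36.2 CPM per kilobase (38.3 CPM), and 68 members had a mean of at least 10 CPM. Highest per kilobase stood MRPL51, a mitochondria-specific large-subunit protein, at 223, MRPL33, the relative of bacterial L33, at 197, and MRPS16, an early-binding small-subunit protein, at 104. MRPL51 (chromosome 12, 6491886 to 6493262, Entrez 51258) measured 109, 105 and 134 CPM in copper replicates 1 to 3 and 110, 101 and 111 CPM in the controls. MRPL33 measured 88.0, 80.5 and 80.9 CPM in copper and 82.0, 72.7 and 72.3 CPM in control. MRPS16 measured 96.0, 84.7 and 96.7 CPM in copper and 93.2, 83.4 and 84.4 CPM in control. In all 3 the groups overlapped. MRPL49 (103 CPM per kilobase) and MRPL3 (100) followed MRPS16 closely, and the 3 did not differ beyond the spread over their libraries. The order per kilobase rests on the transcript length used. By mean CPM alone, MRPL37 (148) and MRPL3 (146) stood highest.

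Lowest among the detected members stood MRPL38, a mitochondria-specific large-subunit protein, at 1.15 CPM per kilobase, MRPS24, which takes the place of bacterial S3, at 1.55, and MRPS17, a conserved small-subunit protein, at 2.31. MRPL38 (chromosome 17, 75898644 to 75904884, Entrez 64978) measured 2.38, 2.08 and 2.54 CPM in copper and 1.65, 1.91 and 2.52 CPM in control. MRPS24 (chromosome 7, 43866558 to 43869517, Entrez 64951) measured 1.22, 0.953 and 0.971 CPM in copper and 1.25, 1.03 and 1.15 CPM in control. MRPS17 measured 4.15, 4.32 and 5.13 CPM in copper and 4.71, 3.38 and 3.88 CPM in control, so the groups overlapped in all 3 members. MRPL53, another mitochondria-specific large-subunit gene (chromosome 2, 74471982 to 74472680, Entrez 116540), had 0 counts in all 6 libraries, which by a limit of 3 counts allows 0.121 to 0.183 CPM per library (counting error only).

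**Figure D2:**
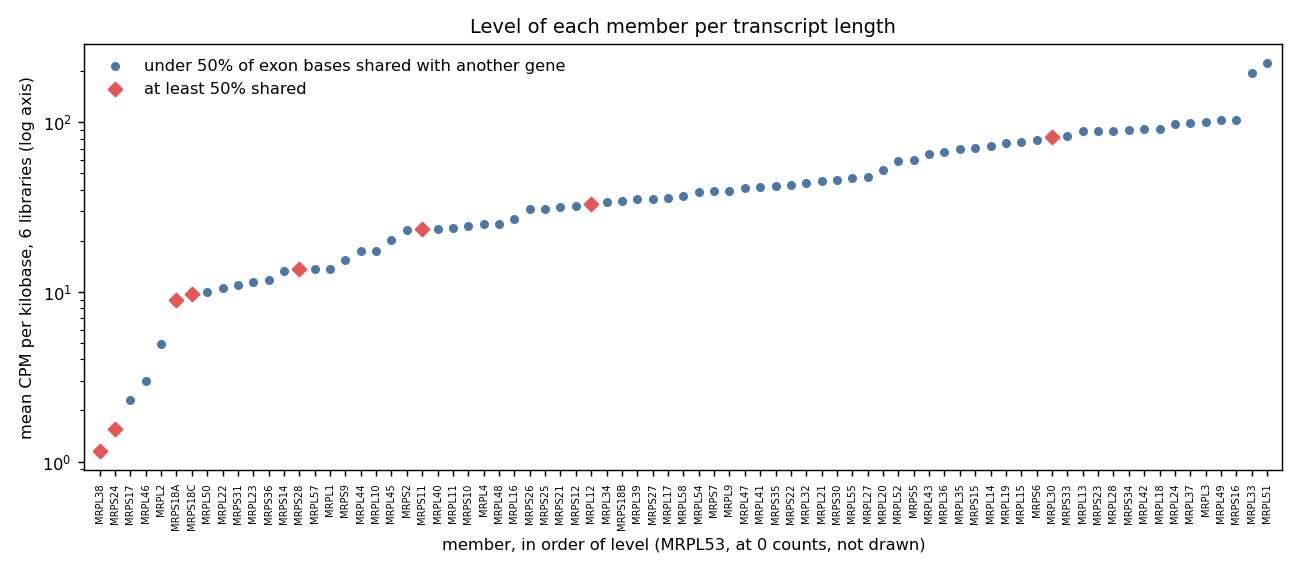
Mean CPM per kilobase over the 6 libraries (y axis, log scale) for each detected member, in order of level along the x axis and coloured by the share of exon bases that another gene overlaps. The levels run from 1.15 for MRPL38 to 223 for MRPL51, and several of the heavily overlapped genes lie at the low end.

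The levels were set beside the overlap of each gene with its neighbours. How the authors' counting treated reads that 2 genes can claim is not given in the sources used here. Overlap was taken with any gene of GENCODE 29, and whether each such gene was also among the genes counted was not checked. In GENCODE 29, 9 members share at least 50% of the exon bases of the transcript used with another gene, and their levels had a median of 9.70 CPM per kilobase (0 to 82.5). The other 69 had a median of 39.2 (2.31 to 223). MRPL53 shares all of its exon bases, 100%, with CCDC142 on the same strand, MRPS24 shares 85.7% with the readthrough gene URGCP-MRPS24, and MRPL38 shares 67.8%. Low levels were not limited to these genes: 11 of the 69 others also lay under 15 CPM per kilobase, against 6 of the 9, and MRPS17 is among the 11. The part of overlap in these levels was not tested, and the values of the 9 are uncertain. Their 8 tested members had a median log2 fold change of 0.042, against 0.113 for the 69.

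No member was called in the test of copper against control. edgeR's quasi-likelihood test called 0 of 77 members at a Benjamini-Hochberg adjusted p under 0.05 (percent called over all 12944 genes tested: 0%), and the smallest member adjusted p was 1.00. At an unadjusted p under 0.05 stood 2 members, MRPL20 (0.023) and MRPS11 (0.048), where 3.52% of all genes did. With the replicate number as a block, 0 members were called against 22 genes in all (0.17%), and the smallest member adjusted p was 0.478. DESeq2 called 0 members and 27 genes (0.209%), and limma-voom called 0 of either (0%). Standard errors of the members' log2 fold changes ran from 0.085 to 0.328, with a median of 0.114, about the size of the median fold change itself.

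Positive values were frequent. Of the 77 members, 69 (89.6%) had a log2 fold change above 0, against 51.4% of all genes. The share was also high among the cytosolic ribosomal proteins, at 68 of 82 tested genes (82.9%). With the block 66 members were above 0, against 6417 of all 12944 genes. The members also lay closer together, with an SD across genes of 0.092 against 0.210, or 0.083 against 0.148 where the mean was 10 CPM or more. Where the mean over the libraries was 10 CPM or more and counting noise is smaller, the 68 members had a median of 0.110 with 92.6% positive, and all 9258 genes a median of -0.005 with 48.3% positive. Genes of 1 library share its depth and composition and are not independent replicates, so these shares describe 6 libraries and carry no p.

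**Figure D3:**
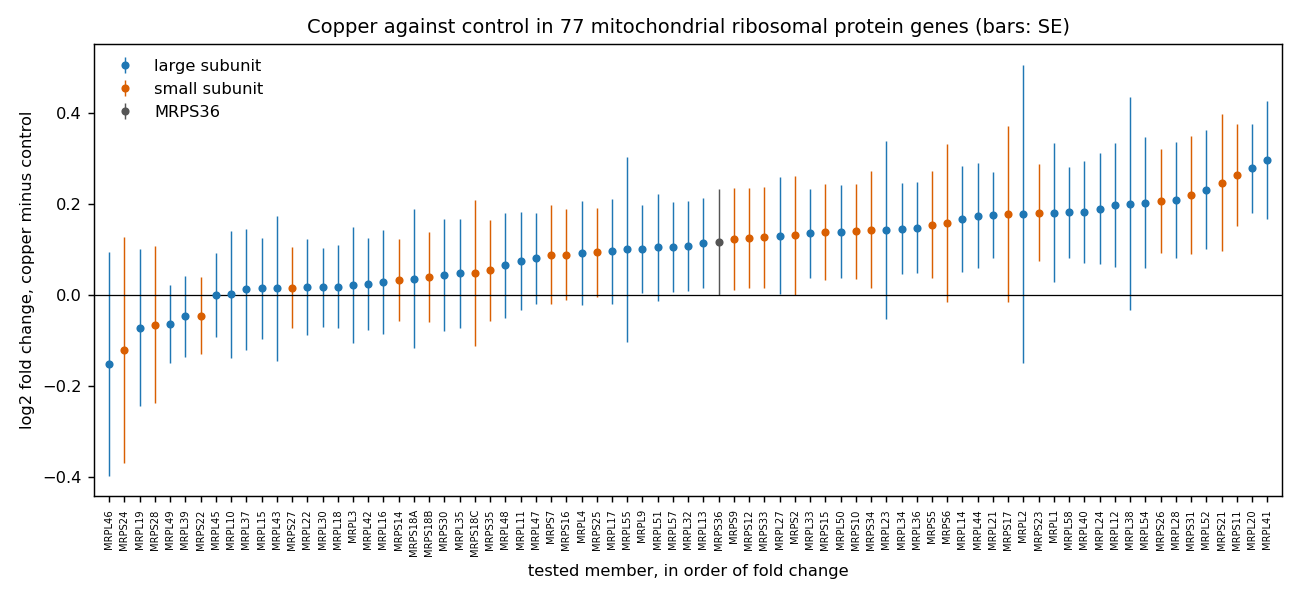
Log2 fold change, copper minus control (y axis), with its SE as a bar, for the 77 tested members in order of value along the x axis, coloured by subunit. The points run from -0.15 (MRPL46) to 0.30 (MRPL41), and 69 of them lie above 0.

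The replicate pairs did not contribute alike. Copper minus control of the same replicate number was above 0 in 50 of 77 members in pair 1 (64.9%), 55 in pair 2 (71.4%) and 65 in pair 3 (84.4%), against 50.5%, 51.5% and 50.2% of all genes. The medians over all genes were 0.002, 0.007 and 0.002. Above 0 in all 3 pairs were 33 members (42.9%, against 17.7% of all genes), and below 0 in all 3 were 3 members (17% of all genes). Without replicate 3 in either group the median was 0.0565, with 55 members positive, and without copper replicate 3 alone it was 0.0693, also with 55. With replicate 3 left out and the block kept, edgeR called 912 genes (7.03%) and 1 member, MRPS23, at a log2 fold change of 0.20 (SE 0.060, adjusted p = 0.0434).

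**Figure D4:**
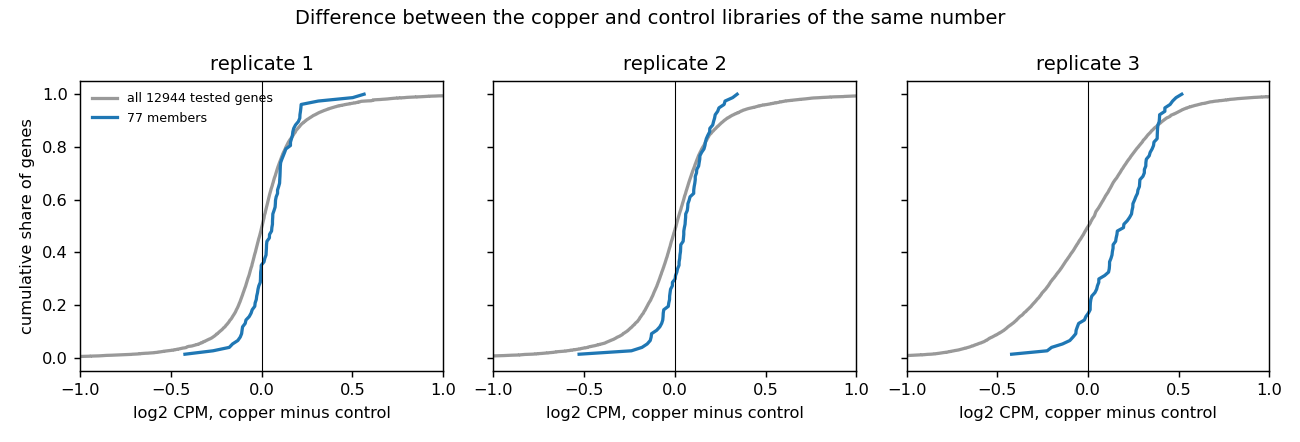
Cumulative share of genes (y axis) by log2 difference between the copper and control libraries of the same number (x axis), one panel per replicate number, for the 77 members and for all 12944 tested genes. In its middle part the member curve lies to the right, with medians of 0.059, 0.056 and 0.197 in pairs 1, 2 and 3 against 0.002, 0.007 and 0.002 for all genes, and it is steeper, so that the curves cross near the top.

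The shift was smaller once a joint trend on transcript length and GC content was removed. Members have short messages, with a median transcript length of 1086 bases against 2239 over all tested genes, at a similar GC content (49.4% and 49.6%). With the trend on length and GC removed within each library, the median differences in pairs 1, 2 and 3 were 0.029, 0.021 and 0.091, and the median fitted with this correction was 0.058, with 56 members positive. Within the copper group, replicate 3 lay above the mean of replicates 1 and 2 by a median of 0.116 over the members, and by -0.020 once the trend was removed. In control the same values were -0.012 and -0.071. The cytosolic ribosomal proteins, whose median transcript length is 694 bases, had a median log2 fold change of 0.085 over 82 tested genes and pair medians of -0.025, -0.011 and 0.261. Length and GC were corrected together, and the part of either alone in the members' shift was not tested.

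Large-subunit members covered 51 genes, 50 of them tested. They include MRPS30 and MRPS18A, which carry small-subunit names but sit in the large subunit. Their summed level was 2559, 2419 and 2638 CPM in copper replicates 1 to 3 and 2484, 2323 and 2368 CPM in control, so the groups overlapped. The small subunit's 26 genes summed to 1211, 1156 and 1289 CPM in copper and 1166, 1093 and 1114 CPM in control, which overlapped as well. The ratio of the large to the small sum was 2.11, 2.09 and 2.05 in copper and 2.13, 2.12 and 2.13 in control. All 3 copper ratios lay below all 3 control ratios, at 2.08 ± 0.034 and 2.13 ± 0.0029 (SD, n = 3). The difference of -0.042 was close to the copper SD, and was -0.023 without copper replicate 3. The order of the subunit medians turned without copper replicate 3 (0.076 for the large and 0.062 for the small), without control replicate 3 (0.104 and 0.088), without replicate 3 of both groups (0.060 and 0.052, or 0.062 and 0.054 with the block), and with the block without replicate 1 (0.114 and 0.113). MRPS36, the remaining member, is now known as a component of the alpha-ketoglutarate dehydrogenase complex and not of the ribosome, and its log2 fold change was 0.12 (SE 0.12).

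Among large-subunit proteins, the 30 with bacterial relatives had a median log2 fold change of 0.103, 29 of them positive (28 with the block). The 20 tested mitochondria-specific ones had a median of 0.085, 16 of them positive (14 with the block). MRPL20 (chromosome 1, 1401909 to 1407293, Entrez 55052), whose bacterial relative binds ribosomal RNA early in assembly, measured 43.7, 38.4 and 42.2 CPM in copper and 35.2, 34.9 and 32.4 CPM in control. Every copper library lay above every control library. The means were 41.4 ± 2.73 and 34.2 ± 1.55 CPM (SD, n = 3), with a log2 fold change of 0.28 (SE 0.098; edgeR adjusted p = 1.00, and 0.478 with the block). MRPL41 (chromosome 9, 137551879 to 137552555, Entrez 64975), a mitochondria-specific protein, measured 57.4, 50.2 and 66.9 CPM in copper and 50.9, 43.3 and 47.7 CPM in control, where copper replicate 2 lay below control replicate 1. Its log2 fold change was 0.30 (SE 0.13), or 0.18 without copper replicate 3.

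MRPL52, another mitochondria-specific protein, measured 33.8, 34.9 and 44.0 CPM in copper and 32.4, 29.5 and 34.2 CPM in control. The groups overlapped, and its log2 fold change of 0.23 (SE 0.13) was 0.10 without copper replicate 3. MRPL21, the relative of bacterial L21 (chromosome 11, 68891278 to 68903832, Entrez 219927), measured 31.5, 32.2 and 34.5 CPM in copper and 29.6, 27.8 and 29.4 CPM in control. Its groups did not overlap, and its log2 fold change was 0.18 (SE 0.094).

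At the other end of the large subunit, MRPL46 (chromosome 15, 88459478 to 88467388, Entrez 26589) measured 2.13, 2.64 and 3.67 CPM in copper and 2.90, 2.94 and 3.62 CPM in control. The groups overlapped only through copper replicate 3, which lay above every control library. The log2 fold change of MRPL46 was -0.15 (SE 0.25), or -0.38 without copper replicate 3 and 0.003 without copper replicate 1. MRPL19, the relative of bacterial L19 at the subunit interface, measured 86.7, 92.4 and 58.1 CPM in copper and 86.0, 85.5 and 77.9 CPM in control. Copper replicate 3 was its lowest library; the log2 fold change of -0.07 (SE 0.17) turned to 0.11 without it. MRPL49 measured 49.9, 51.6 and 49.5 CPM in copper and 53.9, 52.6 and 51.3 CPM in control, overlapping by one copper library, with a log2 fold change of -0.06 (SE 0.085). MRPL39 measured 38.0, 38.3 and 39.4 CPM in copper and 38.2, 40.1 and 41.3 CPM in control, a log2 fold change of -0.05 (SE 0.089) that was -0.08 without control replicate 1 and -0.02 without control replicate 3.

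The stalk region of the large subunit, which recruits translation factors, is built from MRPL10, MRPL11 and MRPL12. MRPL12 measured 34.9, 30.8 and 42.5 CPM in copper and 30.7, 30.1 and 33.6 CPM in control, a log2 fold change of 0.20 (SE 0.14), or 0.06 without copper replicate 3. MRPL11 measured 37.2, 34.1 and 40.2 CPM in copper and 38.0, 34.9 and 33.0 CPM in control, a log2 fold change of 0.08 (SE 0.11), or 0.01 without copper replicate 3 and 0.03 without control replicate 3. MRPL10 measured 25.8, 28.5 and 35.9 CPM in copper and 28.8, 29.2 and 32.2 CPM in control, a log2 fold change of 0.00 (SE 0.14) whose sign turned under several settings. The groups overlapped in all 3, and the stalk proteins did not differ from control beyond their spread.

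Among small-subunit proteins, the 16 with bacterial relatives had a median log2 fold change of 0.128, 14 of them positive, and the 10 mitochondria-specific ones a median of 0.110, 9 of them positive. MRPS11, the relative of bacterial S11 (chromosome 15, 88467708 to 88480775, Entrez 64963), measured 20.5, 19.8 and 18.7 CPM in copper and 17.7, 16.3 and 15.04 CPM in control. Every copper library lay above every control library, at 19.7 ± 0.943 against 16.4 ± 1.35 CPM (SD, n = 3). The log2 fold change was 0.26 (SE 0.11; edgeR adjusted p = 1.00, and 0.518 with the block). Of its exon bases, 50.7% are shared with a gene on the other strand, so its value is uncertain.

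MRPS31, a mitochondria-specific protein (chromosome 13, 40729128 to 40771190, Entrez 10240), measured 17.1, 16.3 and 18.2 CPM in copper and 15.9, 15.6 and 12.7 CPM in control. Its groups did not overlap, by a gap that was small beside the spread of the controls, and its log2 fold change was 0.22 (SE 0.13), or 0.12 without control replicate 3. The left-out row MRPS31P5 is a copy of this gene, and reads between them could be split, which was not tested. MRPS31P5 had 9, 13 and 7 counts in copper and 14, 9 and 11 in control. MRPS31 had 281, 290 and 337 counts in copper and 396, 319 and 242 in control. MRPS21, the relative of bacterial S21, measured 39.1, 37.2 and 50.5 CPM in copper and 37.7, 30.8 and 38.4 CPM in control. The groups overlapped, and the log2 fold change of 0.25 (SE 0.15) was 0.10 without copper replicate 3. MRPS28 measured 7.86, 8.24 and 7.23 CPM in copper and 9.49, 8.38 and 6.50 CPM in control, a log2 fold change of -0.07 (SE 0.17), while that of MRPS24 was -0.12 (SE 0.25), and -0.23 to -0.06 with 1 library left out.

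Groups that did not overlap were thus 4 with higher copper values, MRPL20, MRPL21, MRPS11 and MRPS31 (5.19% of 77, against 5.45% of all genes), and 0 with lower copper values (5.35% of all genes). The share with higher values was near the share of all genes. With the block, 6 members had an unadjusted p under 0.05, all with higher copper values: MRPL20, MRPL41, MRPS11, MRPS21, MRPL52 and MRPS26 (7.79%, against 4.16% of all genes with higher and 4.24% with lower values).

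**Figure D5:**
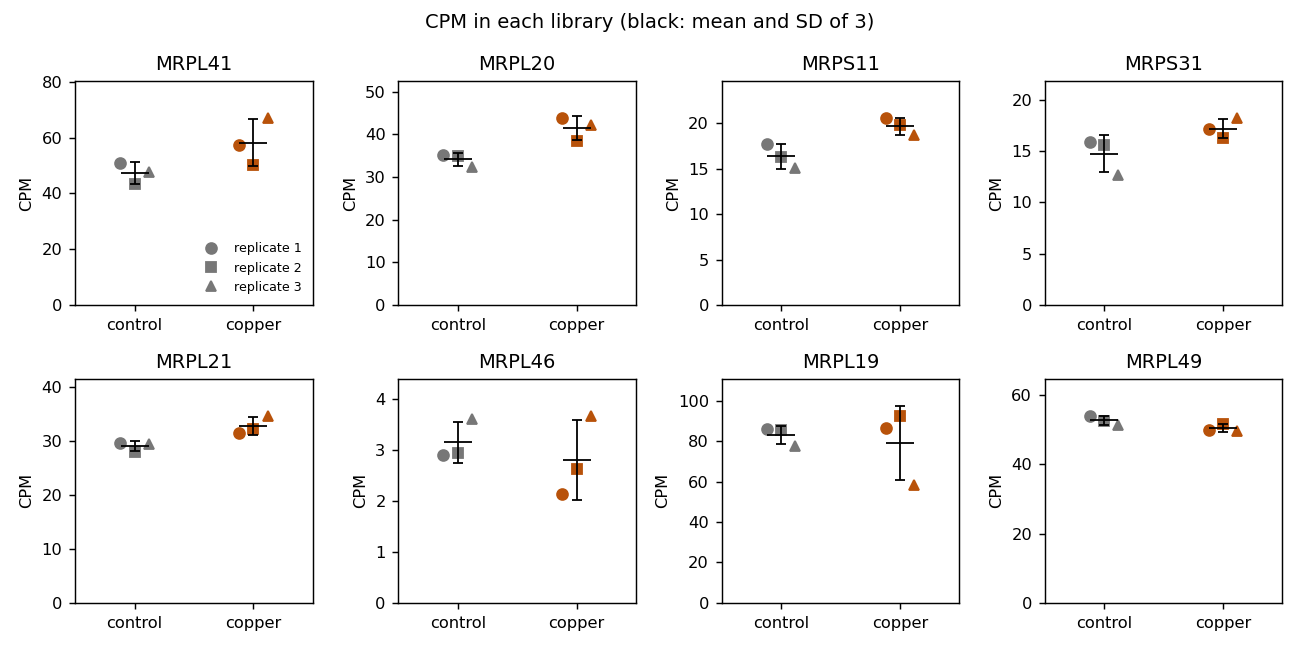
CPM (y axis, from 0) in each library for 8 members, with control and copper side by side, point shapes for replicate numbers, and the mean and SD of 3 libraries in black. The groups do not overlap for MRPL20, MRPS11, MRPS31 and MRPL21, while MRPL41, MRPL46, MRPL19 and MRPL49 overlap.

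The S18 family holds 3 related members. MRPS18C, the closest relative of bacterial S18, and MRPS18B sit at different places of the small subunit, and MRPS18A in the large. MRPS18B had 34.5 CPM per kilobase, and MRPS18C had 9.70 and MRPS18A 8.92. MRPS18B measured 50.8, 51.3 and 58.8 CPM in copper and 51.6, 50.8 and 54.2 CPM in control. MRPS18C measured 5.97, 6.39 and 7.34 CPM in copper and 6.44, 7.01 and 5.61 CPM in control. MRPS18A measured 7.92, 6.34 and 7.01 CPM in copper and 6.84, 7.50 and 6.39 CPM in control. In each the groups overlapped, with log2 fold changes of 0.04, 0.05 and 0.04 (SE 0.099, 0.16 and 0.15). The pair with low levels shares exon bases with genes on the opposite strand, MRPS18C 63.2% and MRPS18A 50.6%.

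Many members start next to another gene on the opposite strand. Such a start within 1000 bases was found for 28 of 78 members (35.9%) and for 14.3% of 25559 genes. In 26 of the 28 the genes faced away from each other (33.3%, against 11.2% of all genes; within 500 bases, 26.9% against 9.59%), while MRPL9 and MRPS9 overlap their partners OAZ3 and MRPS9-AS2. MRPL46 and MRPS11 form the only such pair made of 2 members. Their starts lie 320 bases apart, and their log2 fold changes were -0.15 and 0.26, with levels of 3.0 and 23.5 CPM per kilobase. Of the 24 tested partners that are no members, 14 had a positive log2 fold change (median 0.051) and 0 were called with the block (smallest edgeR adjusted p = 0.593). Their members were positive in 23 of 24, with a median of 0.104.

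Single pairs differed in sign. IGHMBP2, a helicase gene 59 bases from MRPL21, had 0.16 beside 0.18 for MRPL21, and FAU, which encodes a cytosolic ribosomal protein fusion 187 bases from MRPL49, had 0.14 beside -0.06. NCAPD2, a condensin subunit 840 bases from MRPL51, had -0.18 beside 0.10. DNAJC9-AS1, 97 bases from MRPS16, had -0.06 beside 0.09, HELQ, 109 bases from MRPS18C, had -0.02 beside 0.05, and LRRC46, 129 bases from MRPL10, had 0.41 beside 0.00 at a mean of only 0.575 CPM.

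Proteins of the same ribosome that carry other names were measured in 5 genes, with a median log2 fold change of 0.160 and 4 positive. DAP3, a GTP-binding small-subunit protein, measured 114, 119 and 129 CPM in copper and 105, 98.9 and 100 CPM in control, with no overlap. Its log2 fold change was 0.25 (SE 0.091), which edgeR did not call (adjusted p = 1.00, and 0.530 with the block). CHCHD1 and AURKAIP1 of the small subunit had log2 fold changes of 0.22 and 0.16, GADD45GIP1 of the large had 0.16, and PTCD3, a pentatricopeptide-repeat protein of the small subunit, had -0.04.

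No gene of the wider pathway lists was called either, where edgeR called 0% of all 12944 genes, or 0.17% with the block. Of the lists of ribosome assembly factors (21 tested), mitochondrial translation factors (17), mitochondrial transcription and replication factors (9) and biogenesis regulators (9), edgeR called 0 genes in each with or without the block, and the medians were 0.097, 0.041, 0.079 and -0.004. Positive values numbered 17 of 21, 10 of 17, 7 of 9 and 4 of 9 (3 of 9 for the last with the block). TFB1M, which methylates the small ribosomal RNA, measured 15.3, 16.1 and 16.7 CPM in copper and 13.1, 13.1 and 14.3 CPM in control. Its groups did not overlap, and its log2 fold change was 0.25 (SE 0.11; edgeR adjusted p = 1.00, and 0.570 with the block). POLG, the catalytic subunit of the mitochondrial DNA polymerase, measured 86.0, 87.3 and 86.7 CPM in copper and 97.2, 102 and 107 CPM in control. Every copper library lay below every control library, with a log2 fold change of -0.23 (SE 0.086; edgeR adjusted p = 1.00, and 0.530 with the block). MTRF1L, a release factor, had a log2 fold change of -0.29 with overlapping groups, or -0.13 without control replicate 2, and PPRC1, a coactivator of mitochondrial biogenesis, had -0.13.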

How the data were processed

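RNA-seq counts of 6 libraries of 786-O cells, 3 copper and 3 control, were used. The authors deposited raw counts per gene as 1 table of 25992 genes. Libraries were directional, per the labels' protocols. STAR, FastQC, edgeR and GRCh38 are named in the submitters' processing notes, without versions or roles. The counting program and its use of strand are not given in the sources used here. The 5 rows without a symbol (0.000814% of counts) were left out.

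Counts were fitted on the whole table in R 4.3.3 with edgeR 4.0.16 (filterByExpr, minimum count 10 and minimum total 15; TMM; robust quasi-likelihood test on group; Benjamini-Hochberg adjustment, called under 0.05; prior count 2), which tested 12944 genes. CPM is scaled by TMM library sizes. The biological coefficient of variation was 15.4%, or 9.05% with the block. Alternatives used other scalings and filters, DESeq2 1.42.0, limma-voom (limma 3.58.1), a replicate block, a length and GC correction and left-out libraries. The fit was run on simulated counts with 200 genes changed 2-fold. It recovered 143 of them with 16 false calls, or 144 with 18 false calls with the block. The simulated libraries had no replicate structure, and changes as small as those of the members were not simulated.

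The labels number replicates 1 to 3 in both groups without saying what a number shares. Deviations from the group means correlated between same-numbered libraries at 0.46, 0.40 and 0.65, all over the 0.1 set as the limit for pairing. Deviations of 3 libraries from their mean sum to 0, and replicate 3 stood apart in both groups, so the 3 values are not independent. Differently numbered libraries were not compared, so the values cannot show that equal numbers are pairs. Calls with the block, and the main counts of positive values that it changed, are given beside the fit without it.

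Transcript length and exon overlap are from GENCODE 29 (the median-length coding transcript of each gene). Positions are those of the count table with 1 added to the start. Of the 78 members, 73 had a start, and 73 an end, within 1000 bases of RefSeq GRCh38.p14. The position of MRPS18B did not and is not printed. All members, also those outside this limit, entered the search for neighbouring starts at their table positions. That search found no partner for MRPS18B.

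The members and lists were chosen with earlier results of these data known. Genes were named by rule: the called members, the 6 highest and 6 lowest fold changes, the 3 highest and 3 lowest levels per length, the S18 family, the stalk, members whose groups do not overlap, the smallest p in each other list, ribosomal proteins with other names, and head-to-head partners of these. EPCAM, MRPL3, MRPL9, MRPL37, MRPS9, MRPS22, MRPS23, MRPS26, MRPS30 and MRPS36 were named after their values were seen.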

Additional observations from a re-analysis of the deposited data

How the results depend on the processing

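No member was called under any alternative except 1 (MRPS23) in the fit without replicate 3 and with the block; the cause was not tested. Genes called over the whole table numbered 0 as reported, 12 with no filter, 27 with DESeq2, 22 under the replicate block, 137 when a length and GC correction joined the block, 7 with that correction alone, and 59 with DESeq2 and the block. With 1 library left out they numbered 0 to 15 (15 without copper replicate 3), and with a replicate left out of both groups 111 without replicate 3, or, blocked, 74 without replicate 1, 77 without replicate 2 and 912 without replicate 3. With all 6 libraries the replicate block changed no call of a member; without replicate 3 of both groups it called MRPS23, which the fit without the block did not. Over all fits the member median stayed positive, between 0.0565 (without replicate 3) and 0.154 (without copper replicate 2). Members whose groups do not overlap numbered 4 with higher copper values as reported, 9 with upper-quartile scaling (11.7%, against 6.57% of all genes) and 8 with total-count scaling (10.4% against 7.21%). With 1 library left out they numbered 4 to 27: 27 without copper replicate 2 (35.1% against 10.8%), 20 without control replicate 1 (26% against 8.64%), 13 without control replicate 3 (16.9% against 10.1%), 11 without copper replicate 3 (14.3% against 17%), 7 without copper replicate 1 (9.09% against 8.22%) and 4 without control replicate 2 (5.19% against 7.48%). With replicate 1, 2 or 3 left out of both groups they numbered 24 (31.2% against 11.9%), 28 (36.4% against 13.3%) and 20 (26% against 22.5%, with and without the block); fewer libraries are compared in these fits. With lower values they numbered 0 as reported (5.35% of all genes). With DESeq2-type scaling factors, no filter, and the length and GC correction (with or without the block), they numbered 1 in each. That was 1.3% of members, against 5.52%, 4.55% and 6.64% of all genes. With 1 library left out they numbered 1 to 3 (1.3% to 3.9%, against 7.34% to 16.3%). With replicate 1, 2 or 3 left out of both they numbered 3, 2 and 6 (3.9%, 2.6% and 7.79%, against 11.3%, 12.9% and 21.6% of all genes). The difference between the subunit ratios, -0.042 as reported, ran from -0.057 to -0.023 with 1 library left out, the last without copper replicate 3. In the 100 bases before the start the ETS, YY1 and NRF1 words were in 27.1%, 4.29% and 5.71% of members. This window is shorter and also leaves out the 50 bases after the start. Of the 24 members with the YY1 word, 20 held it at or after the start. Of 713 values of named genes under alternatives, 669 kept their direction and side of the threshold, 38 turned sign, and 6 passed the threshold newly, none of them a member (COL1A1 in 3 fits, and DAP3, POLG and PPRC1 in 1 each). The log2 fold change of MRPL10 turned to -0.00107 with DESeq2-type factors, -0.0174 with no filter, -0.000897 with DESeq2, -0.00781 with limma-voom, -0.0107 with the block, -0.0500 with the block and correction, -0.0458 with the correction and -0.0137 with DESeq2 and the block. That of MRPS18A turned to -0.0393 with the block and correction and -0.0424 with the correction, and that of MRPS18B to -0.00947 and -0.00914. With 1 library left out, values spanned 0 for MRPL10 (-0.147 to 0.0976), MRPL19 (-0.203 to 0.107), MRPL46 (-0.381 to 0.00297), MRPL51 (-0.0136 to 0.167), MRPS18A (-0.0512 to 0.106), MRPS18B (-0.0324 to 0.0751), MRPS18C (-0.0390 to 0.122) and MRPS28 (-0.200 to 0.0573). Without replicate 3 of both groups, unblocked and blocked, the values that turned were -0.0957 and -0.0986 for MRPL10, -0.0339 and -0.0311 for MRPL11, 0.0630 and 0.0618 for MRPL19, -0.00860 and -0.00652 for MRPS18A, -0.00489 and -0.00484 for MRPS18B, and -0.115 and -0.119 for MRPS18C. Blocked without replicate 1 they were -0.0587 for MRPS18A and 0.0573 for MRPS28. Without a change of sign, 1 library left out also moved MRPS16 (0.0538 to 0.144), MRPS17 (0.0738 to 0.309), MRPL38 (0.0683 to 0.372), MRPS24 (-0.231 to -0.0590), MRPL39 (-0.0806 to -0.0210), MRPS21 (0.0988 to 0.326), MRPL12 (0.0615 to 0.295) and MTRF1L (-0.388 to -0.133) by over 1.5 times. With depths of 16301772 to 25079913 counts and 3 libraries a group, member standard errors of 0.085 to 0.328 limit what log2 fold change could be detected.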
